A study of Mus musculus with 4 samples.

Results

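The 9 genes described here encode enzymes of the tricarboxylic acid (TCA) cycle and were chosen by name: Cs, Idh2, Idh3a, Ogdh, Dlst, Suclg1, Sucla2, Fh1 and Mdh2. All 9 were found among the 55401 genes listed in each count table, by their Ensembl identifiers. Poly(A)-selected RNA from kidney and heart of C57BL/6 mice was sequenced in 4 libraries, with 1 library per group; sham mice were not analysed here. All mice had undergone cecal ligation and puncture (CLP), a surgical model of sepsis in which the cecum is tied off and pierced so that gut bacteria leak into the abdomen. The CLP kidney and CLP heart groups had the surgery without melatonin (MLT), the hormone of the pineal gland. The CLP+MLT kidney and CLP+MLT heart groups came from mice that also received melatonin. For the kidney experiment the study describes male 8-week-old mice that drank water with 25 ug/ml melatonin for 14 days, were operated on at day 15 and were sampled 24 h later. The melatonin was dissolved in 0.1% ethanol, and sham mice drank 0.1% ethanol in water. What the CLP mice without melatonin drank is not stated. The labels name the treated groups CLP+MLT4 and do not say what the 4 stands for. The sources used here do not give the dose and time for the heart or whether a library holds 1 animal or a pool. The questions are whether the cycle genes differed between CLP+MLT and CLP within each organ, and between the organs. With 1 library per group the spread between mice is unknown, so no treatment difference below was tested, and every interval covers counting error only.

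The TCA cycle runs in the mitochondrial matrix. It oxidises the acetyl group of acetyl-CoA to carbon dioxide and hands the electrons, as NADH and FADH2, to the respiratory chain, where they drive ATP synthesis. Cardiac muscle and the proximal tubule of the kidney both work almost wholly on oxidative metabolism, are packed with mitochondria and feed the cycle mainly from fatty acids. Citrate synthase (Cs) starts the cycle by joining acetyl-CoA to oxaloacetate. Idh3a is the catalytic subunit of the NAD-linked isocitrate dehydrogenase, and Idh2 is the NADP-linked mitochondrial enzyme, which makes NADPH for the defence against peroxides. Ogdh and Dlst are the E1 and E2 components of the 2-oxoglutarate dehydrogenase complex. Suclg1 is the alpha subunit of succinyl-CoA ligase, shared by its ATP-forming and GTP-forming versions, and Sucla2 is the beta subunit that makes the enzyme ATP-forming. Fh1 (fumarate hydratase) and Mdh2 (mitochondrial malate dehydrogenase) carry fumarate through malate back to oxaloacetate.

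All 9 are protein-coding genes, placed here on mm10 (GRCm38) by the GENCODE M21 annotation. Cs (ENSMUSG00000005683.8) lies at chr10:128337734-128362479, Idh2 (ENSMUSG00000030541.16) at chr7:80094846-80115392 and Idh3a (ENSMUSG00000032279.11) at chr9:54586334-54604661. Ogdh (ENSMUSG00000020456.17) lies at chr11:6291633-6356642 and Dlst (ENSMUSG00000004789.10) at chr12:85110833-85134845. Suclg1 (ENSMUSG00000052738.14) lies at chr6:73248382-73276911 and Sucla2 (ENSMUSG00000022110.13) at chr14:73525319-73596142. Fh1 (ENSMUSG00000026526.14) lies at chr1:175600374-175625635 and Mdh2 (ENSMUSG00000019179.10) at chr5:135778480-135790398. The 9 genes are thus on 9 different chromosomes. None of them shares an exonic base with another annotated gene. Of the 50-base words in their transcripts, 2.01% for Cs also occur in Csl, a near copy of citrate synthase, and 0.33% or fewer are shared for each of the others.

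The promoter windows of 4 genes are printed because their genes lie at both ends of the heart comparison: Suclg1, Mdh2 and Idh2 had the lowest CLP+MLT over CLP ratios of the 9 in heart, and Dlst had the highest. Each is 300 bases long, from 250 before to 50 after the transcription start, read 5′ to 3′ on the gene's strand from RefSeq on GRCm38.p6. The Idh2 window is chr7:80115301-80115600 on the minus strand. The other 3 are on the plus strand, Suclg1 at chr6:73248255-73248554, Mdh2 at chr5:135778399-135778698 and Dlst at chr12:85110583-85110882. Capitals mark a match to one of the motifs searched.
Suclg1: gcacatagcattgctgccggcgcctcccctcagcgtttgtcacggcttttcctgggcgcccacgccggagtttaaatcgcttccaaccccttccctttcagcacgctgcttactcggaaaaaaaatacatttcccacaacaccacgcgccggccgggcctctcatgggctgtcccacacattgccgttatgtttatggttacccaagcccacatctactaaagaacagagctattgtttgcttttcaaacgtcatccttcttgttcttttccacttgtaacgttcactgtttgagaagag
Mdh2: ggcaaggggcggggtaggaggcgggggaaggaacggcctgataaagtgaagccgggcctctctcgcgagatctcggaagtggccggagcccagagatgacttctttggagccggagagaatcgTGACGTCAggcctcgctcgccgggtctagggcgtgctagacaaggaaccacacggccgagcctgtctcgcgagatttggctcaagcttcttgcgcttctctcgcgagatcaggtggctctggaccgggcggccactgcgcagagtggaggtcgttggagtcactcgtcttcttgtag
Idh2: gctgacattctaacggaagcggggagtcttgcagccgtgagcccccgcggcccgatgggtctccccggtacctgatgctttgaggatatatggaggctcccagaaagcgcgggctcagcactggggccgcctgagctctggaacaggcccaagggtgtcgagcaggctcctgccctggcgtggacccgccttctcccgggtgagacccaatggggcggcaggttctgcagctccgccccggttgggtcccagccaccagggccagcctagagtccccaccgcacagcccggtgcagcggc
Dlst: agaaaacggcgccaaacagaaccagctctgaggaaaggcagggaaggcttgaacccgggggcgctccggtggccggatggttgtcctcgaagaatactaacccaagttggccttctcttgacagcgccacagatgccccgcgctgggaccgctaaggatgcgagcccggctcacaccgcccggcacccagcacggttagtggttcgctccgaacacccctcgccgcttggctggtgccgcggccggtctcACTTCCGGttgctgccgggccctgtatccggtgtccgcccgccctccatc

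The windows were searched on both strands for 4 motifs of factors known for control of mitochondrial genes: CGCATGCG (the core of the NRF1 motif), CAAGGTCA (estrogen-related receptors), CCGGAAGT (GABP and other ETS factors) and TGACGTCA (CREB). These letters occur in 1.87%, 1.56%, 3.89% and 1.79% of all 32851 promoter windows of that length, in that order. RefSeq windows were at hand for 8 of the 9 genes, Idh3a being the exception. Mdh2 holds the CREB letters 127 bases before its RefSeq start, and Dlst holds the ETS letters on the minus strand at its RefSeq start. For some genes the RefSeq start differs from the GENCODE gene start given above. The GENCODE gene of Mdh2 begins inside the window, at chr5:135778480, and the CREB letters lie after that base. The Sucla2 window, chr14:73552536-73552835, lies wholly inside the GENCODE gene. The 6 alternative windows of Ogdh, from its different starts, hold 1 match each, but overlapping windows share a match. Windows 1, 2 and 3 hold the same CREB letters, window 4 the estrogen-related receptor letters, and windows 5 and 6 the same NRF1 letters. The shares above are per window, and Ogdh has 6. No match was found in the windows of Cs, Idh2, Suclg1, Sucla2 and Fh1, which says only that these letters are absent there. The GC content of the windows ran from 49.3% to 72.3% against a median of 52.7% for all windows. They held 11 to 37 CpG dinucleotides against a median of 7. None of the 4 motifs was shared by Suclg1, Mdh2 and Idh2.

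Reads assigned to genes numbered 15883057 to 22927905 per library, and each of the 9 genes had 957 to 16973 reads in each library. The mitochondrial genome gave 14.8% of these reads in CLP kidney, 24.2% in CLP+MLT kidney, 31.6% in CLP heart and 36.0% in CLP+MLT heart. Levels are therefore given as CPM, a gene's counts as parts of a library total that TMM scaling has adjusted on the assumption that most genes keep their level. The CPM levels use factors over all 4 libraries and the log2 ratios of CLP+MLT over CLP use factors within the organ, so ratios of the printed CPM come out higher by about 0.05 log2 in heart. All 13 cardiomyocyte markers were higher in the heart than in the kidney libraries, and all 9 proximal tubule markers were higher in the kidney libraries, as the labels have it. The heart libraries still held reads of the proximal tubule markers: the summed level of the 9 markers was 399 CPM in CLP heart and 876 CPM in CLP+MLT heart, against 19446 and 29419 CPM in the kidney libraries. Every one of the 9 was detected in both heart libraries, and Kap, a protein made in the proximal tubule, had 4352 and 9602 reads there. Where these reads came from was not tested, nor was any part of kidney RNA in the heart values below.

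**Figure D1:**
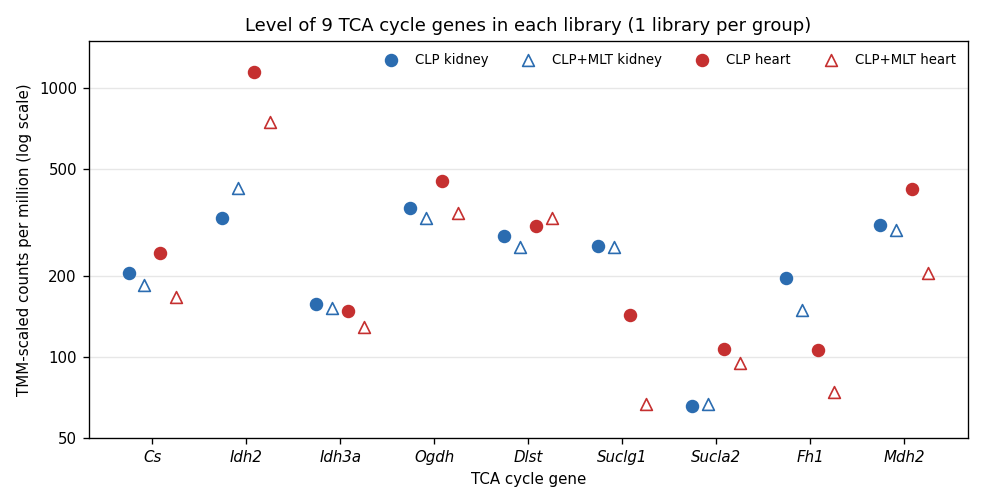
Level of each of the 9 TCA cycle genes in each library, in TMM-scaled CPM on a log axis; 1 point is 1 library, circles are CLP and triangles CLP+MLT, blue is kidney and red is heart. Idh2 stands highest in both heart libraries (1147 and 746 CPM). The heart triangles of Suclg1 (67.3 CPM) and Mdh2 (206 CPM) lie well below their circles (144 and 423 CPM). The kidney pairs of Suclg1 and Mdh2 lie close together.

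In kidney, most of the 9 genes stood at nearly the same level with and without melatonin. Idh2 was the highest against its CLP level, at 1.3-fold, and Fh1 the lowest, at 0.764-fold. Of the 9, 0 were past a 1.5-fold ratio in either direction, where 11% of the 16932 genes tested were past it upward and 11.6% downward. Among the 3526 genes that averaged 1000 reads or more in kidney, as all 9 did, 6.04% were past it upward and 5.39% downward. Their median log2 ratio was -0.05, beside 0.00 for all genes tested, with 2 genes above 0 and 7 below. The 1.5-fold limit, a log2 ratio of 0.585 in either direction, is the fold limit of the study's own methods.

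Idh2 had 9017 reads (328 CPM) in CLP kidney and 7346 reads (425 CPM) in CLP+MLT kidney, a log2 ratio of 0.38 (95% counting interval 0.33 to 0.42). It was the only one of the 9 whose interval lay wholly above 0 in kidney. Fh1 had 5407 reads (197 CPM) and 2591 reads (150 CPM), a log2 ratio of -0.39 (-0.46 to -0.32). Of all genes tested in kidney, 80.5% had a lower ratio than Idh2 and 18.8% a lower ratio than Fh1. Cs, at the entry to the cycle, stood at 205 and 186 CPM, a log2 ratio of -0.13. The components of the 2-oxoglutarate dehydrogenase complex differed as little, with Ogdh at 358 and 328 CPM (-0.12) and Dlst at 283 and 256 CPM (-0.14). The intervals of Fh1, Cs, Ogdh and Dlst lay below 0. That of Mdh2 ran from -0.10 to -0.00, its upper end being 0 only as rounded. Suclg1 stood at 260.0 and 256 CPM, Sucla2 at 65.7 and 66.8 CPM, Idh3a at 158 and 152 CPM and Mdh2 at 310.0 and 298 CPM. These 4 had log2 ratios between -0.05 and 0.03.

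In heart, 8 of the 9 genes were lower in the CLP+MLT library than in the CLP library, and 3 were lower by more than 1.5-fold. Suclg1 was 2.22-fold lower, Mdh2 2.12-fold lower and Idh2 1.59-fold lower. Dlst stood at nearly the same level in both. The median log2 ratio of the 9 was -0.56, beside 0.00 for all 15871 genes tested, of which 12.6% were past the limit downward and 10.9% upward. Among the 2320 genes that averaged 1000 reads or more, as all 9 did, 10.6% were past it downward and 2.11% upward. In tissue RNA, fewer cells of a type and less RNA per cell cannot be told apart.

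Suclg1, the subunit that both forms of succinyl-CoA ligase need, had 2137 reads (144 CPM) in CLP heart and 957 reads (67.3 CPM) in CLP+MLT heart, a log2 ratio of -1.15 (-1.26 to -1.04). Mdh2, the last enzyme of the cycle, had 6255 reads (423 CPM) and 2932 reads (206 CPM), a log2 ratio of -1.08 (-1.15 to -1.02). Idh2 had 16973 reads (1147 CPM) and 10612 reads (746 CPM), a log2 ratio of -0.67 (-0.70 to -0.63). Of all genes tested in heart, 3.74% had a lower ratio than Suclg1, 4.33% a lower ratio than Mdh2 and 10.3% a lower ratio than Idh2.

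Cs and Fh1 lay just inside the limit. Cs had 3597 and 2396 reads (243 and 168 CPM), a log2 ratio of -0.58 (-0.65 to -0.50), and Fh1 had 1570 and 1059 reads (106 and 74.5 CPM), a log2 ratio of -0.56 (-0.67 to -0.44). For both, the counting interval reached past the limit. Ogdh stood at 453 and 342 CPM, a log2 ratio of -0.45 (-0.50 to -0.40). Idh3a, at 148 and 130.0 CPM, and Sucla2, at 107 and 95.5 CPM, had log2 ratios of -0.23 and -0.21. Dlst had 4529 and 4666 reads (306 and 328 CPM), and its interval of -0.01 to 0.11 held 0. The partners of one complex thus stood apart, Dlst at 0.05 beside Ogdh at -0.45, and Sucla2 at -0.21 beside Suclg1 at -1.15.

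**Figure D2:**
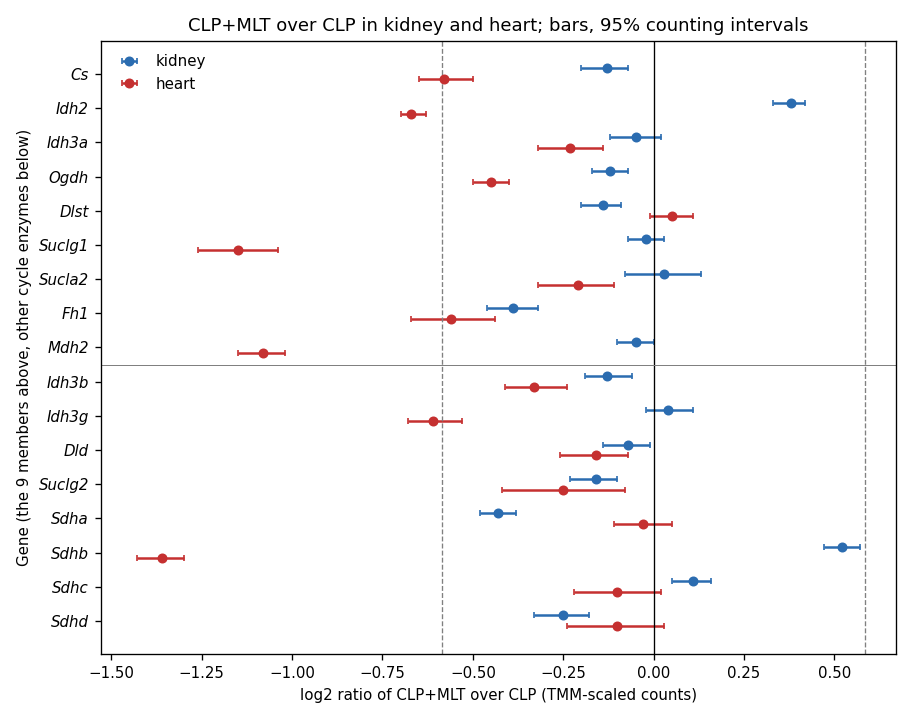
Log2 ratio of CLP+MLT over CLP in kidney (blue) and heart (red) for the 9 genes, above the grey line, and 8 other cycle enzymes, below it; points are ratios of 1 library over 1 library, bars are 95% counting intervals and dashed lines are the 1.5-fold limits. Suclg1 (-1.15), Mdh2 (-1.08), Idh2 (-0.67), Sdhb (-1.36) and Idh3g (-0.61) lie past the lower limit in heart, and no kidney point is past either limit.

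The heart ratio was below the kidney ratio for 8 of the 9 genes, with Dlst the exception, and the counting interval of the difference lay wholly below 0 for all 8. Scaled by library size alone, 5 of the 9 lay below 0, with the median over all genes shifted to 0.24. The median difference, heart minus kidney, was -0.33 log2, beside -0.01 over the 14592 genes measured in both organs. It was widest for Suclg1 at -1.13 (-1.25 to -1.01), Idh2 at -1.04 (-1.10 to -0.99) and Mdh2 at -1.03 (-1.11 to -0.95). Idh2 stood on opposite sides of 0, at 0.38 in kidney and -0.67 in heart, with both counting intervals clear of 0. The signs of Sucla2 (0.03 and -0.21) and Dlst (-0.14 and 0.05) also differed, each with 1 interval that held 0. For Dlst the difference was 0.19 (0.12 to 0.27). With 1 library per group this difference between the organs could not be tested.

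Of the rest of the cycle, 8 further genes were compared: Idh3b and Idh3g (the other subunits of the NAD-linked isocitrate dehydrogenase), Dld (E3 of the 2-oxoacid dehydrogenase complexes), Suclg2 (the GTP-forming beta subunit) and Sdha to Sdhd (succinate dehydrogenase, which is also complex II of the respiratory chain). In kidney 0 of these 8 were past the limit, and their median log2 ratio was -0.10. In heart all 8 lay below 0, with a median of -0.21, and 2 were past the limit downward and 0 upward. Of all genes tested, 11% were past it upward and 11.6% downward in kidney, and 10.9% and 12.6% in heart. The CLP+MLT over CLP counts of the lists below stand beside these same shares. Sdhb, the iron-sulfur subunit, had 7525 reads in CLP heart and 2902 in CLP+MLT heart, a log2 ratio of -1.36 (-1.43 to -1.30), and was higher in kidney, with 6926 and 6237 reads and a log2 ratio of 0.52 (0.47 to 0.57). Idh3g stood at -0.61 in heart and 0.04 in kidney.

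The 4 subunits of succinate dehydrogenase did not stand together in heart. Beside Sdhb at -1.36, Sdha (the flavoprotein) stood at -0.03 and the membrane anchors Sdhc and Sdhd both at -0.10. In kidney Sdha stood at -0.43, Sdhc at 0.11 and Sdhd at -0.25. Idh3b (-0.13 and -0.33), Dld (-0.07 and -0.16) and Suclg2 (-0.16 and -0.25) stood below 0 in both.

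In heart, the ratio went with transcript length. Among the 2320 genes that averaged 1000 reads or more, the median log2 ratio was -0.64 where the longest basic transcript was under 1000 bases, -0.34 from 1000 to 1500 bases, -0.16 from 1500 to 2000 bases and 0.09 above 6000 bases. Across these genes Spearman's rho of ratio and length was 0.39, and across these 17 cycle enzymes it was 0.46. In kidney the same values were -0.12 over 3526 genes and -0.39 over the 17. These are correlations across genes of the same libraries, which are not independent replicates. The genes past the lower limit in heart were among the shorter of the 17, with longest transcripts of 1519 bases for Suclg1, 1456 for Mdh2, 1745 for Idh2, 1142 for Sdhb and 1331 for Idh3g. Sdhd, at 1231 bases, stood at only -0.10.

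With the length trend of the abundant genes subtracted, a step chosen after the data had been seen, Suclg1 stood at -0.90 and Mdh2 at -0.82 in heart, both still past the limit. Idh2 moved to -0.48 and Idh3g to -0.30, no longer past it, and Sdhb to -0.97. The median of the 9 genes was then -0.48, beside 0.09 for all genes tested in heart. Their median difference, heart minus kidney, was then -0.33, beside 0.11 over all genes measured in both organs. The cardiomyocyte markers also differed between the heart libraries, with a summed level of 45498 CPM in CLP heart and 33948 CPM in CLP+MLT heart. Of the 13 markers 5 lay above 0 and 8 below, with a median log2 ratio of -0.34. Past the limit were 1 upward (Myh7, 0.94) and 4 downward, which were Tnnc1 (-1.68), Myl3 (-1.46), Myl2 (-1.33) and Tnni3 (-1.27). The part of fragment or transcript length and of cell makeup in the heart ratios was not tested beyond these values.

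**Figure D3:**
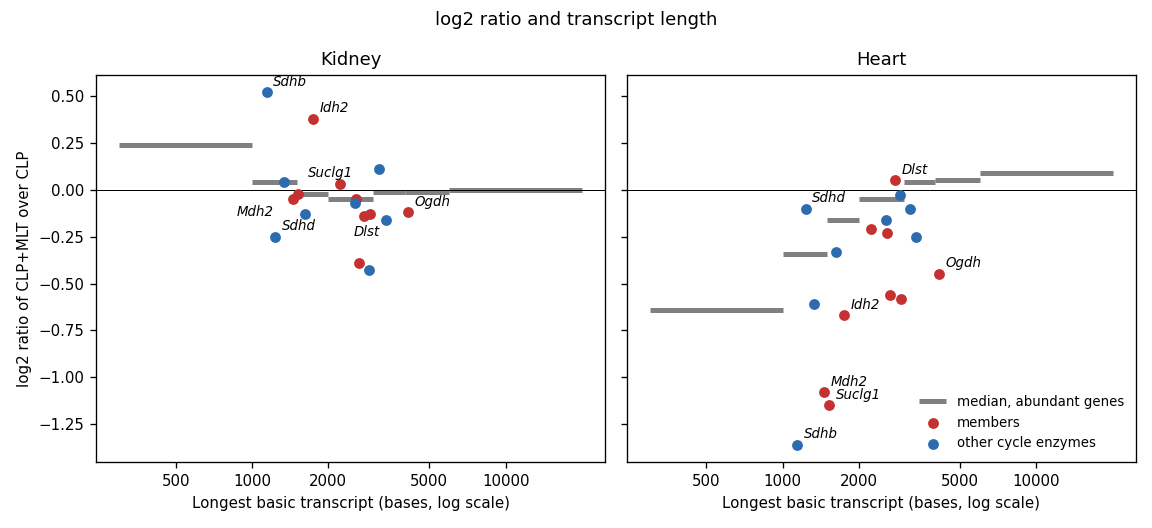
Log2 ratio of CLP+MLT over CLP against the longest basic transcript in bases (log axis), in kidney and heart, for the 9 genes (red) and 8 other cycle enzymes (blue); grey bars are the medians of genes that averaged 1000 reads or more in each length range, the outermost ranges being open-ended. In heart the grey medians run from -0.64 for the shortest transcripts to 0.09 for the longest, and Suclg1 and Mdh2 lie below the median of their length range.

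Acetyl-CoA enters the cycle from pyruvate through the pyruvate dehydrogenase complex. Its 4 core genes, Pdha1, Pdhb, Dlat and Pdhx, had log2 ratios from -0.25 to 0.04 in kidney and from -0.38 to 0.00 in heart, with 0 past the limit in either organ. Of the 9 genes for the kinases and phosphatases that switch the complex off and on and for the mitochondrial pyruvate carrier, 0 were past the limit upward and 2 downward in kidney, and 1 upward and 2 downward in heart. Pdk4, the kinase that shuts the complex when fatty acids are burned, had 6729 reads in CLP kidney and 1290 in CLP+MLT kidney, a log2 ratio of -1.71, and 6192 and 3589 reads in heart, a log2 ratio of -0.78. Pdk1 stood at 0.51 and 0.57 in kidney and heart, and Pdk2 at -0.02 and -0.56. The carrier subunit Mpc2 stood at 0.43 in kidney and -0.64 in heart, and the phosphatase regulator Pdpr, on 59 to 165 reads, at -0.65 and 0.88. The phosphatase Pdp1, on 95 to 295 reads, stood at 0.41 and -0.49.

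Of the 16 genes listed for entry to and exit from the cycle and for its carriers, 0 were past the limit upward and 4 downward in kidney (median -0.30), and 2 upward and 3 downward in heart (median -0.05). The shares over all genes tested were 11% upward and 11.6% downward in kidney, and 10.9% and 12.6% in heart. Got2, the mitochondrial aspartate aminotransferase that works with Mdh2 in the malate-aspartate shuttle, had 4257 and 1857 reads in heart, a log2 ratio of -1.19, and stood at -0.26 in kidney. Pck1, which takes oxaloacetate into gluconeogenesis, stood at -0.52 in kidney, on 76597 and 33584 reads, and at 0.82 in heart, on 801 and 1408 reads. Pck1 is strongly made in the proximal tubule, of whose 9 markers 6 were past the limit upward and 1 downward in heart, with a median log2 ratio of 1.01. Whether the Pck1 ratio in heart has the same source was not tested. Glud1, which turns glutamate into 2-oxoglutarate, stood at -0.72 in kidney and 0.21 in heart. The citrate carrier Slc25a1 stood at -0.35 and -0.71, the malic enzyme Me3 at -0.01 and -0.73, and Me2, on 43 to 125 reads, at -0.80 and 0.93.

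Among 4 related isozymes (Idh1, Mdh1, Aco1 and Ogdhl), Idh1, the cytosolic counterpart of Idh2, had 5056 and 1890 reads in kidney, a log2 ratio of -0.75. Ogdhl, which can take the place of Ogdh, stood at -0.64 in kidney on 65 and 26 reads, with a counting interval of -1.37 to 0.03 that held 0. In heart Ogdhl stood at -0.70, on 2600 and 1594 reads, Aco1 at 0.50 and Idh1 at -0.07. These isozymes counted 0 upward and 2 downward of 4 past the limit in kidney (1 downward with a prior count of 5), and 0 upward and 1 downward in heart. Among the 4 genes for lipoylation, which arms Dlst with its lipoic acid arm, and for the Mrps36 adaptor of its complex, 0 were past the limit in either organ. Of the 4 assembly factors of succinate dehydrogenase, 0 were past it in kidney and 1 was higher in heart, Sdhaf3, on 24 and 47 reads, at 0.96. Acod1, which makes itaconate from cis-aconitate in activated macrophages, had 2 reads in each kidney library and 13 and 8 in the heart libraries, too few to compare.

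The respiratory chain takes over the electrons of the cycle, and its nuclear core genes stood lower in heart. Of 20 such genes 15 were past the limit downward and 0 upward in heart, with a median log2 ratio of -0.85. In kidney 0 were past it downward and 1 upward, Cox6c at 0.70, with a median of 0.13. Scaled by library size alone, that kidney median turned to -0.07. The upward count in kidney was 0 by library size alone, and also 0 with the transcript length trend of the abundant genes subtracted. In heart Cox5b stood at -1.64, Cox4i1 and Cox6c at -1.54 and Ndufs7 at -1.42. Subunits of ATP synthase followed, with Atp5d and Atp5o both at -1.32. With the length trend subtracted, the median of the 20 in heart was -0.56 and 9 were past the limit downward. The 13 protein genes of the mitochondrial genome had a median of 0.92 in kidney, with 12 past the limit upward, and of 0.14 in heart, with 1 past it upward and 2 downward. With the length trend subtracted, their median in heart was 0.54, with 6 past it upward and 0 downward. Under that setting 16.7% of all genes tested in heart were past the limit upward and 8.1% downward, with a median of 0.09. In kidney 10 of the 13 were then past it upward, beside 9.62% of all genes. By library size alone 9 were, beside 6.79% of all genes. Of 7 regulators of mitochondrial transcription 0 were past the limit in kidney and 3 were higher in heart: Ppara at 1.34 (30 and 76 reads), Ppargc1b at 1.11 (56 and 121 reads) and Esrra at 0.60 (2538 and 3826 reads).

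Between the organs, 4 of the 9 genes differed by the test over all 4 libraries, 2 in each direction. Suclg1 and Fh1 were higher in kidney, and Idh2 and Sucla2 were higher in heart. The other 5, Cs, Idh3a, Ogdh, Dlst and Mdh2, did not pass the test. edgeR's quasi-likelihood test compared the 2 kidney with the 2 heart libraries with treatment as a covariate. At a Benjamini-Hochberg adjusted p of at most 0.05 it called 29.9% of 17088 genes higher in kidney and 28.4% lower, so the count for the 9 was near that of all genes. It rests on 1 residual degree of freedom, the difference between the organs in their melatonin response. edgeR draws the spread of each gene towards that of all genes, so the p values do not rest on the gene's own difference alone. The spread between mice within a group is not measured by this test.

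Suclg1 was 1.80-fold higher in kidney under CLP and 3.81-fold higher under CLP+MLT, with an edgeR log2 ratio of 1.39 and an adjusted p of 0.00304. Fh1 was 1.86-fold and 2.02-fold higher in kidney, with an edgeR log2 ratio of 0.95 and an adjusted p of 0.00492. Idh2 was 3.49-fold higher in heart under CLP and 1.75-fold higher under CLP+MLT, with an edgeR log2 ratio of -1.31 and an adjusted p of 0.0096. Sucla2 was 1.63-fold and 1.43-fold higher in heart, with an edgeR log2 ratio of -0.61 and an adjusted p of 0.0301. For all 4, both kidney libraries lay on the same side of both heart libraries, as they also did for Dlst and Idh3a, which were not called. The call for Sucla2 was lost when libraries were scaled by size alone.

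Mdh2 stood on opposite sides under the 2 conditions. It was higher in heart under CLP (310.0 CPM in kidney, 423 in heart; log2 ratio -0.45) and higher in kidney under CLP+MLT (298 and 206 CPM; log2 ratio 0.53). The edgeR log2 ratio was 0.04, with an adjusted p of 0.917. Cs likewise stood at -0.25 under CLP and 0.15 under CLP+MLT, with an adjusted edgeR p of 0.873. Ogdh (-0.34 and -0.06), Dlst (-0.12 and -0.36) and Idh3a (0.10 and 0.22) kept their side in both pairs, with adjusted edgeR p values of 0.555, 0.462 and 0.572. Scaled by library size alone, the edgeR log2 ratios of Cs, Ogdh and Dlst turned to 0.28, 0.13 and 0.09. Pair by pair, 2 of the 9 were past 1.5-fold higher in kidney under CLP (37.3% of all genes) and 2 lower (33.5%). Under CLP+MLT 2 were past it higher in kidney (36.4% of all genes) and 1 lower (34.7%).

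**Figure D4:**
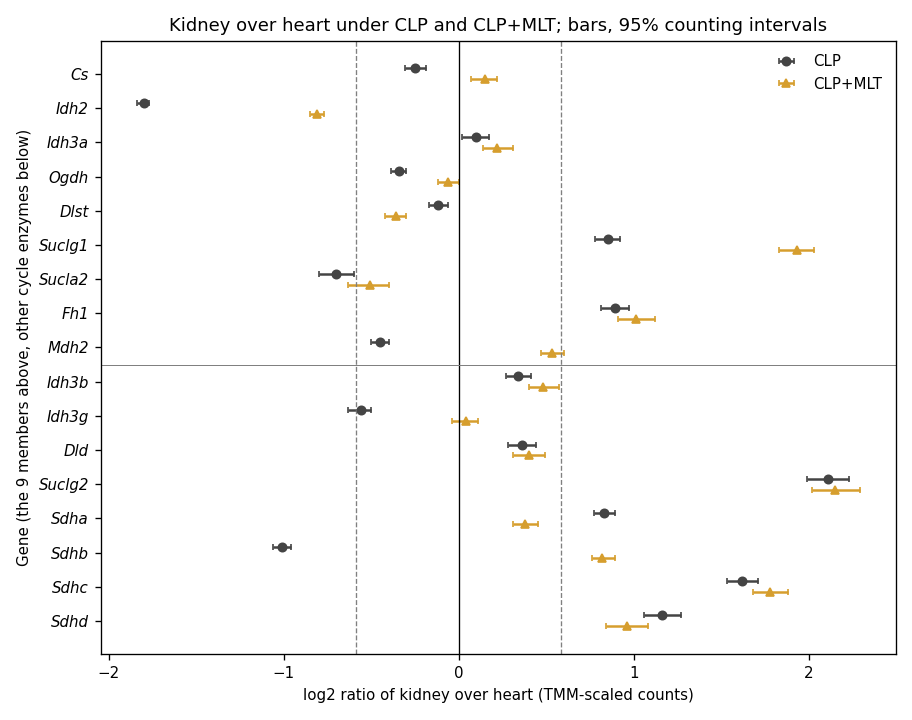
Log2 ratio of kidney over heart under CLP (black circles) and CLP+MLT (orange triangles) for the 9 genes, above the grey line, and 8 other cycle enzymes, below it; each point is 1 library over 1 library, bars are 95% counting intervals and dashed lines are the 1.5-fold limits. Suclg1 and Fh1 lie to the right of the upper limit and Idh2 to the left of the lower limit under both conditions, while Mdh2 (-0.45 and 0.53) and Sdhb (-1.01 and 0.82) lie on opposite sides of 0.

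Among the other cycle enzymes, Suclg2 was 4.32-fold and 4.44-fold higher in kidney, with an edgeR log2 ratio of 2.13 and an adjusted p of 2.57e-05. Sdhc (edgeR log2 ratio 1.70, adjusted p 0.000192) and Sdhd (1.06, adjusted p 0.00195) were also higher in kidney. Sdhb stood at -1.01 under CLP and 0.82 under CLP+MLT, with an adjusted edgeR p of 0.857. Sdha missed the threshold with an edgeR log2 ratio of 0.61 and an adjusted p of 0.0694. The remaining 3, Idh3b, Idh3g and Dld, had adjusted edgeR p values from 0.161 to 0.411.

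The beta subunits of succinyl-CoA ligase divided by organ. Compared per exonic length, as TPM (reads per base of exon, scaled to the same total in each library), Sucla2 made up 29.0% and 31.8% of the sum of Sucla2 and Suclg2 in the CLP and CLP+MLT kidney libraries, and 74.2% and 74.7% in the heart libraries. The ATP-forming subunit was the larger part in heart and the GTP-forming subunit the larger part in kidney, and within each organ the share differed by less than 3 percentage points between conditions. Ogdh made up 99.1% and 99.4% of Ogdh plus Ogdhl in kidney and 66.2% and 69.9% in heart. Idh2 made up 65.6% and 80.6% of Idh2 plus the cytosolic Idh1 in kidney and 95.8% and 93.8% in heart. Mdh2 made up 56.1% of Mdh2 plus the cytosolic Mdh1 in CLP heart and 39.1% in CLP+MLT heart, against 31.3% and 32.6% in kidney. By the longest basic transcript these shares were 72.1% and 56.5% in heart and 48.0% and 49.4% in kidney, so which of the pair was the larger part in CLP+MLT heart depends on the length used.

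Per length, Idh2 was the highest of the 9 in every library, at 313 and 305 TPM in kidney and 703 and 488 TPM in heart. By exonic length it alone held 25.1% and 32.0% of the summed TPM of the 9 in kidney and 52.9% and 51.6% in heart. These shares change with the length used. In CLP kidney the first place of Idh2 also depended on the length used, since Mdh2 came first when the longest basic transcript took the place of the exonic length. Mdh2 was next by exonic length in 3 libraries, at 214, 155 and 188 TPM, and stood behind Ogdh in CLP+MLT heart, at 97.9 beside 106 TPM. Sucla2 was the lowest of the 9 in 3 libraries, at 40.6, 31.1 and 42.5 TPM, and Suclg1 was the lowest in CLP+MLT heart, at 24.7 TPM beside 37.1 for Fh1. By the longest basic transcript Fh1 was the lowest in both heart libraries. Neighbours in this order often differed by little, such as Suclg1 and Fh1 in CLP heart, both at 49.6 TPM. Summed over the 9, the level was 1248 TPM in CLP kidney, 952 in CLP+MLT kidney, 1327 in CLP heart and 945 in CLP+MLT heart. TPM is a share of all RNA, the mitochondrial genome included, so a larger mitochondrial share lowers the TPM of every other gene. On the TMM scale the sums were 2164 and 2119 CPM in kidney and 3078 and 2159 CPM in heart.

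The mean profile of the 9 genes over the 4 libraries was flat in kidney and higher in CLP than in CLP+MLT heart. Centred on its own mean in log2, it stood at 0.04 in CLP kidney, -0.02 in CLP+MLT kidney, 0.24 in CLP heart and -0.25 in CLP+MLT heart. Cs lay nearest to it of the 9, at a Euclidean distance of 0.089, and Suclg1 farthest, at 1.435. Of 11652 genes outside the lists that averaged 100 reads or more, the 5 nearest were Gtf2i (0.06), Calcoco1 (0.071), Higd1a (0.077), Ppil2 (0.077) and Klhdc4 (0.083). This is a likeness over 4 libraries only.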

How the data were processed

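RNA from kidney and heart of mice after CLP with or without MLT was measured in 4 libraries, grouped by their labels. The deposited counts are whole-number reads per gene that the authors made with trim-galore, HISAT2 2.1.0 on mm10 and, by the submitters' processing notes, HTSeq, with no version or strand setting in the sources used here. The kit does not mark strand. Of the reads that were given to a gene or to none, 52.1% to 52.6% had no gene per library; these summary lines were left out. Identifiers were matched without version to GENCODE M21 (55141 of 55401, 54349 with the same version).

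Log2 ratios used TMM factors from edgeR 4.0.16 (R 4.3.3), within the organ for treatment and over 4 libraries for organ, a prior count of 0.5 and a filter that kept genes averaging 10 counts or more in the libraries compared. Intervals are 95% exact Clopper-Pearson intervals from the counts (for differences of ratios, from Poisson error) and cover counting error only. They take the scaling factors as fixed. Reads without molecular identifiers are not independent molecules, so the intervals can be too narrow even for counting error. Treatment was not tested. Organ was tested with edgeR's quasi-likelihood test and Benjamini-Hochberg adjustment over all genes, with a common biological coefficient of variation of 0.212, after tests on simulated data. TPM used the summed exonic length.

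The 9 genes and all gene lists were chosen with earlier results of these data known, the lists from general knowledge. Named were the 9 genes, 8 other cycle enzymes (a further one is not reported here), Acod1, Pdk4 and Pck1 whatever their values, up to 6 genes of each further list with the largest ratio in either organ, and the 5 genes nearest to the mean profile. Markers of endothelial, fibroblast, leukocyte, erythroid, adipocyte and distal tubule cells were also measured and are given in the closing section. Alternatives were other scalings, filters, prior counts and fold limits, length trends and DESeq2 1.42.0. Shared 50-base words were counted in the GENCODE transcripts, and promoter windows came from RefSeq tables on GRCm38.p6.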

Additional observations from a re-analysis of the deposited data

Results flagged for a closer look

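Idh2 and Sdhb differed between the organs in the direction of their CLP+MLT over CLP ratio: the kidney library pair was higher with melatonin and the heart pair lower. For Idh2 the difference, heart minus kidney, was -1.04 log2, with 9017 and 7346 reads in kidney and 16973 and 10612 in heart. For Sdhb it was -1.89 log2, with 6926 and 6237 reads in kidney and 7525 and 2902 in heart. With 1 library per group, the difference was not tested for either gene.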

How the results depend on the processing

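Scaling was the choice that moved most values. By library size alone, the median log2 ratio over all genes shifted to -0.19 in kidney, 0.51 for kidney over heart under CLP and 0.25 under CLP+MLT, and the share of genes past the limit that were higher went from 48.6% to 26.6% in kidney and from 52.7% to 65.9% for kidney over heart under CLP. For the 9 genes the median moved from -0.05 to -0.25 in kidney, from -0.25 to 0.18 for kidney over heart under CLP, from 0.15 to 0.37 under CLP+MLT and from -0.33 to -0.08 for heart minus kidney. The genes past the limit lower in kidney than heart then numbered 1 under CLP and 0 under CLP+MLT, and edgeR called 1 lower in kidney. The edgeR log2 ratios of Cs (0.28), Ogdh (0.13), Dlst (0.09), Idh3g (0.06) and Sdhb (0.23) turned positive, and that of Mdh2 turned to -0.05 with treatment left out of the model; none of these 6 was called. With a fold limit of 2, the 9 genes counted 0 higher and 1 lower for kidney over heart under CLP and 0 lower under CLP+MLT. Suclg1 and Mdh2 stayed past the limit in heart under a fold limit of 2 and under both length corrections, each applied alone. With the transcript length trend removed, neither was past a fold limit of 2. The count of the 9 past the limit downward ran from 2 to 4. With the transcript length trend removed, 67.3% of the genes past the limit in heart were higher, against 46.4%. The cause of these shifts was not tested.

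No paired analysis was possible because each group holds 1 library and no label is known to give a replicate number; the edgeR test of organ already compares within each treatment. Counting error is small at 957 or more reads, and the spread between mice, which 1 library per group cannot show, is what limits every treatment ratio.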

Other observations

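Markers of further cell types were measured in the same libraries. Of all genes tested, 11% were past the limit upward and 11.6% downward in kidney, and 10.9% and 12.6% in heart. The 6 endothelial markers had a median log2 ratio of CLP+MLT over CLP of 0.25 in heart and -0.37 in kidney, with 1 past the limit upward in heart. The 6 fibroblast markers stood at a median of -0.33 in heart and, for the 5 that passed the filter, -0.28 in kidney, with 1 past the limit downward in each. Of 9 leukocyte markers 7 passed the filter in each organ, with medians of 0.06 in heart and 0.69 in kidney, where 4 were past the limit upward and 1 downward. The 5 erythroid markers stood at -0.04 in heart and 0.38 in kidney, the 7 markers of the loop and distal tubule at 0.33 and 0.08. Of 4 adipocyte markers 0 passed the filter in heart and 1, Plin1, in kidney, at -3.93.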
